A study of Gallus gallus with 18 samples.

Results

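The response described here is that of the retinal pigment epithelium (RPE) of chicken embryos to removal of the neural retina with added FGF2 at embryonic day 5 (E5), an age by which the RPE is restricted to its own fate. It was chosen by the sample labels, as the 3 libraries of E5 RPE taken 6 h post-retinectomy with FGF2 (6hPR + FGF2) against the 3 libraries of E5 developing RPE, which makes 6 of the 18 libraries of the series, and it was examined across all genes measured. The series is bulk mRNA sequencing of RPE at E4 and E5, each in 3 conditions with 3 libraries, and every library is a pool of 3 RPE sheets. Developing RPE was taken straight from the embryo. Treated eyes had the neural retina cut out, and those given FGF2 also received heparin beads soaked in bovine FGF2 at surgery. The eggs are White Leghorn eggs according to the sample labels and SPAFAS pathogen-free eggs according to the study's methods. The comparison addresses how fate-restricted RPE responds to the injury and growth factor that make younger RPE form neural retina. The developing RPE was not sham-operated and had no 6 h interval, so surgery, FGF2, its beads and elapsed time cannot be told apart in the main comparison. The third E5 group, RPE 6 h post-retinectomy without FGF2 (6hPR), was set beside it where it separates the steps. The study's methods describe beads only for FGF2 delivery, and no group is described as given beads without FGF2. Between 6hPR and 6hPR + FGF2, FGF2 and the heparin beads therefore cannot be told apart. Below, "with FGF2" means with FGF2 on beads.

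The RPE is a pigmented epithelial monolayer that lies against the photoreceptors, makes melanin, absorbs stray light and recycles visual pigment. It arises from the same optic neuroepithelium as the neural retina, and MITF and OTX2 are transcription factors that establish it. FGF binds receptor tyrosine kinases and acts largely through the RAS and ERK kinase cascade, whose targets include its own inhibitors, such as the Sprouty proteins and the dual-specificity phosphatases. In young chick embryos, FGF2 at the time of retinectomy leads the RPE to lose pigment, express neural retina genes and proliferate, a process called reprogramming, and this ability is lost within about a day of development.

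Between 51.8 M and 64.5 M reads fell on genes in the 6 libraries. Values are normalized counts, and log2 of the count plus 0.5 was tested with limma, with Benjamini-Hochberg adjustment over 18287 genes. A gene is said to rise, fall or change only at an adjusted p of 0.05 or less, and all adjusted p values below come from this test. Replicates are pools, and the p values measure only the spread between pools, estimated together over all 18 libraries. The spread within a group was wider in developing RPE (median SD of the log2 values 0.257) than in 6hPR + FGF2 RPE (0.0922). In the groups outside this comparison it lay between 0.116 and 0.172, so the shared estimate also rests on groups less spread than developing RPE. Among the developing libraries, replicate 2 carried the most transcript from neural retina neurons: the summed level of the 17 measured neuron markers lay between 12477 and 36927 normalized counts in developing RPE, the highest being replicate 2, and between 16183 and 18518 in 6hPR + FGF2 RPE. The summed level of 10 RPE markers, pigment genes included, was 926474 to 1306400 in developing RPE and 1000851 to 1162685 in 6hPR + FGF2 RPE, so both groups carried the markers of the labelled tissue. Of the 10, 1 rose and 3 fell (median log2 fold change -0.31). Results are given with and without developing replicate 2 where it bears on them.

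Of the 18287 genes, 15.1% rose and 13.7% fell in 6hPR + FGF2 RPE, that is 2763 and 2498 genes. A change of at least 2-fold was estimated for 1296 of those that rose and 737 of those that fell, and one of at least 4-fold for 665 and 227, so large changes were more often increases. For 5008 of the 5261 genes the 3 libraries of one group lay entirely outside the range of the other, against 38.3% of all genes tested. Without developing replicate 2, 13.0% of genes rose and 11.8% fell. Of the 5261 genes, 4163 were then called in the same direction, 555 that had risen and 543 that had fallen were no longer called, and 0 were called in the opposite direction. Fitted on these 6 libraries alone, without the shared spread of the other groups, 2756 genes were called. Which direction was more frequent depended on the tool and scaling. With all 18 libraries, 2871 genes rose and 2940 fell by DESeq2, 2423 and 2582 by edgeR, and 2498 and 2917 with quantile normalization. The plot of fold change against level shows the asymmetry of the large changes.

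**Figure D1:**
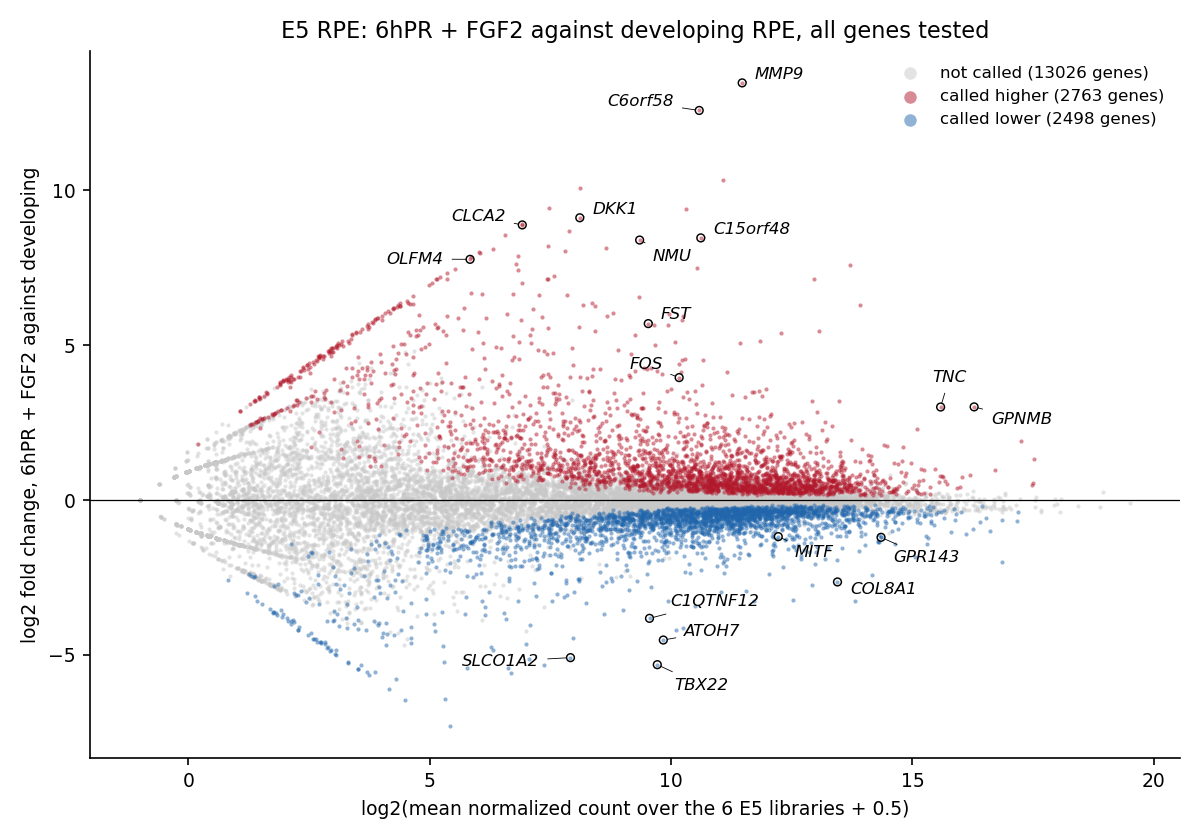
Fold change of every gene tested in E5 RPE, 6hPR + FGF2 against developing (log2, y axis), against its mean level over the 6 libraries (log2 of the normalized count plus 0.5, x axis). Red points are the 2763 genes that rose and blue points the 2498 that fell, and the most extreme points lie above 0. The diagonal lines of points at the left are genes at 0 in every library of a group.

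The largest increases were in genes that were almost silent in developing RPE. *MMP9* (ENSGALG00000006992), which encodes gelatinase B, a secreted protease of extracellular matrix, had 0 reads in every developing library and stood at 6257, 5600.2 and 5203 normalized counts in 6hPR + FGF2 RPE. Set against a floor of 3 counts in each developing library, it was at least 1741-fold higher. On the same footing *C6orf58* (ENSGALG00000045522), at 3009.6, 2739.5 and 3457, was at least 939-fold higher, *CLCA2*, a chloride channel accessory protein, at least 73.8-fold, *CCKAR*, a cholecystokinin receptor, at least 35.3-fold, and *OLFM4*, a secreted glycoprotein, at least 34.7-fold. *CCKAR* stood higher without FGF2 (447, 448 and 635 in 6hPR RPE) than with it (109, 112 and 126), a difference that missed the threshold (log2 -2.12, adjusted p = 0.062). *OLFM4* was the reverse: it had 0 reads in all 3 6hPR libraries and 91.8, 87.5 and 161 normalized counts with FGF2, although DESeq2 did not call its difference from developing RPE (adjusted p = 0.073).

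*DKK1*, a secreted inhibitor of WNT signaling, was at 3.14, 0 and 0 normalized counts in developing RPE and 470.2, 732 and 449.5 in 6hPR + FGF2 RPE. In reads this was 3 against 1705, a ratio of 510 with a 95% interval of 174 to 2477 for counting error. *NMU*, the neuropeptide neuromedin U, was at 14.6, 7 and 0 normalized counts in developing RPE and at 1368, 1182 and 1340.5 in 6hPR + FGF2 RPE, and *C15orf48*, which encodes a small mitochondrial protein, was at 6.27, 15 and 6.11 normalized counts in developing RPE and at 3176, 3196 and 3017 in 6hPR + FGF2 RPE. The groups were far apart for each of these 3 genes. The microRNA gene *gga-mir-147* lies inside *C15orf48* in the RefSeq annotation of assembly GRCg7b, so its reads (0 in developing RPE, 253, 248 and 221 with FGF2, at least 73.6-fold higher) may belong to the host transcript. *SLC7A14*, a member of the cationic amino acid transporter family, *LACTBL1*, a lactamase-like gene, and *AVD*, the biotin-binding protein avidin, completed the 12 largest increases, with log2 fold changes of 8.13, 8.20 and 8.03. The size of these low-baseline changes depended on single developing libraries: that of *SLC7A14* was between 6.87 without developing replicate 3 and 9.20 without developing replicate 2, that of *NMU* between 6.92 without developing replicate 3 and 9.38 without developing replicate 1, that of *AVD* between 7.16 without developing replicate 2 and 9.76 without developing replicate 1, that of *LACTBL1* between 7.61 without developing replicate 2 and 9.37 without developing replicate 1 and that of *DKK1* between 8.64 without developing replicate 2 and 10.07 without developing replicate 1.

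By the same ranking, the 12 largest decreases included T-box transcription factors, transporters and enzymes. *TBX22* was at 1559.8, 3015 and 371 normalized counts in developing RPE and at 33.7, 18.3 and 42.7 in 6hPR + FGF2 RPE, a log2 fold change of -5.31 (adjusted p = 2.2e-05, SE 0.66). *C1QTNF12*, a secreted C1q-related protein, was at 1136, 1195 and 1883 normalized counts in developing RPE and at 101.2, 111 and 80.3 in 6hPR + FGF2 RPE, a log2 fold change of -3.82 (adjusted p = 1.9e-08, SE 0.22). The developing libraries were above every 6hPR + FGF2 library for both, with *C1QTNF12* the more even among them. *RXFP1*, a relaxin receptor, and *KCNA4*, a voltage-gated potassium channel, fell by 3.83 and 3.70 on the log2 scale. *SLCO1A2*, an organic anion transporter, fell by 5.09, *DUOX2*, an oxidase that makes hydrogen peroxide, fell by 4.74, and *CPO*, a carboxypeptidase, by 4.04. *TBX15*, a T-box factor that is also in the list of markers of periocular mesenchyme, stood at 335, 415 and 22 normalized counts in developing RPE and 15, 8.65 and 0 with FGF2 (log2 -5.14), so developing replicate 3 was near the treated level. Without a library its fold change was between -6.49 without developing replicate 3 and -3.62 without 6hPR + FGF2 replicate 3, and that of *TBX22* was between -6.16 without developing replicate 3 and -4.65 without developing replicate 2.

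Several of the largest decreases rested on single libraries. *GDF2*, the ligand BMP9, was at 688, 37 and 20.8 normalized counts in developing RPE and at 4.68, 0 and 13.2 in 6hPR + FGF2 RPE, with a single high developing library, and its call was lost without 6hPR + FGF2 replicate 2 (adjusted p = 0.0513). *DNTT*, a DNA polymerase that adds bases without a template, lost its call without 6hPR + FGF2 replicate 2 (0.12), developing replicate 2 (0.0534) or developing replicate 3 (0.0517). *KK34* was at 33.5, 264 and 20.8 normalized counts in developing RPE and at 0, 0 and 9.15 in 6hPR + FGF2 RPE (log2 -5.42), was not called by DESeq2 (0.15) or edgeR (0.057), and lost its call without 6hPR + FGF2 replicate 1 (0.072) or 2 (0.07) or developing replicate 2 (0.079). *ATOH7* is described with the neurogenic genes. The log2 fold change was between -5.67 without 6hPR + FGF2 replicate 3 and -3.10 without developing replicate 1 for *GDF2*, between -5.85 without 6hPR + FGF2 replicate 1 and -3.15 without 6hPR + FGF2 replicate 2 for *DNTT*, between -6.85 without 6hPR + FGF2 replicate 3 and -4.32 without developing replicate 2 for *KK34* and between -5.93 without 6hPR + FGF2 replicate 3 and -3.06 without 6hPR + FGF2 replicate 1 for *DUOX2*. With only the 6 libraries fitted, the calls of *GDF2*, *DNTT*, *KK34*, *DUOX2* and *TBX15* were also lost.

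FGF and ERK feedback and target genes rose together. 10 of 16 measured members rose and 0 fell, with a median log2 fold change of 0.57 against 0.00 over all genes, and the fitted change was above 0 for all 16 (for decreases, 0 at an unadjusted p under 0.05, 0 by edgeR and 0 by DESeq2). Without developing replicate 2 the count was the same, 10 rose and 0 fell. *SPRY4*, a Sprouty inhibitor of receptor tyrosine kinase signaling, was at 140.1, 94 and 100.2 normalized counts in developing RPE and at 905, 1009.7 and 859 in 6hPR + FGF2 RPE, a log2 fold change of 3.07 (adjusted p = 3.0e-05, SE 0.39). *ETV4*, an ETS transcription factor induced by FGF, was at 1699.9, 873 and 867 normalized counts in developing RPE and at 8261, 7430.1 and 6626 in 6hPR + FGF2 RPE, a log2 fold change of 2.77 (adjusted p = 9.3e-06, SE 0.31). *DUSP6*, the phosphatase that inactivates ERK, was at 2054, 1682 and 2007 normalized counts in developing RPE and at 6347, 5995 and 6537 in 6hPR + FGF2 RPE, a log2 fold change of 1.72 (adjusted p = 1.2e-05, SE 0.20). In each case the lowest treated library was more than the highest developing library, and developing replicates 2 and 3 lay at or below replicate 1 for *SPRY4* and *ETV4*.

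Other members of the list ranged from clear increases to changes that were not called. *DUSP5* (log2 fold change 2.39, SE 0.27, adjusted p = 9.4e-06), *SPRY1* (log2 fold change 1.76, SE 0.26, adjusted p = 1.1e-04), *DUSP7* (log2 fold change 1.19, SE 0.17, adjusted p = 1.0e-04) and *ETV5* (log2 fold change 0.92, SE 0.17, adjusted p = 7.5e-04) rose, as did *IL17RD*, the FGF inhibitor Sef (log2 0.54), *SPRED1* (0.37) and *SPRY2* (0.61). *SPRY2* lost its call without 6hPR + FGF2 replicate 1 (adjusted p = 0.0547) or developing replicate 1 (0.06), and *IL17RD* and *SPRED1* with only the 6 libraries fitted. *SPRED2* (log2 0.46, adjusted p = 0.0502), *SPRY3* (0.37), *DUSP4* (0.32), *CBL* (0.31), *FLRT3* (0.26) and *ETV1* (0.14) were not called. *SPRED2* was called by DESeq2 (0.042), with array weights (0.037), with a mean count of 10 or more required (0.043), with pseudocounts of 1 (0.0497) and 5 (0.049), and without developing replicate 1 (0.0049), the alternative under which *CBL* was called too (0.039).

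The 6hPR libraries divided these genes into those that were higher with FGF2 than without and those that were not. In 6hPR + FGF2 against 6hPR RPE, where 13.9% of all genes rose and 12.3% fell, 11 rose and 0 fell (for decreases, 0 at an unadjusted p under 0.05, 0 by edgeR and 0 by DESeq2). In 6hPR against developing RPE, where 9.92% of all genes rose and 9.09% fell, 2 rose and 3 fell. These comparisons share libraries with the main one and with each other, so their values are given side by side and no overlap is drawn from them. *DUSP6* stood at 2186, 1887 and 1659 in 6hPR RPE, a log2 difference of -0.01 from developing RPE (adjusted p = 1) and of 1.73 to 6hPR + FGF2 (3.3e-05). *DUSP5* stood at 12670, 14411 and 13008, differing by 2.02 from developing RPE (9.0e-05) and by 0.37 to 6hPR + FGF2 (0.34), and *ETV5* likewise rose after retinectomy (0.92) and differed by 0.00 between 6hPR and 6hPR + FGF2. *DUSP4* fell after retinectomy (-1.10, adjusted p = 0.0019) and rose between 6hPR and 6hPR + FGF2 (1.42, 2.6e-04), as did *ETV1* (-0.54 and 0.68), and neither was called in the main comparison.

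**Figure D2:**
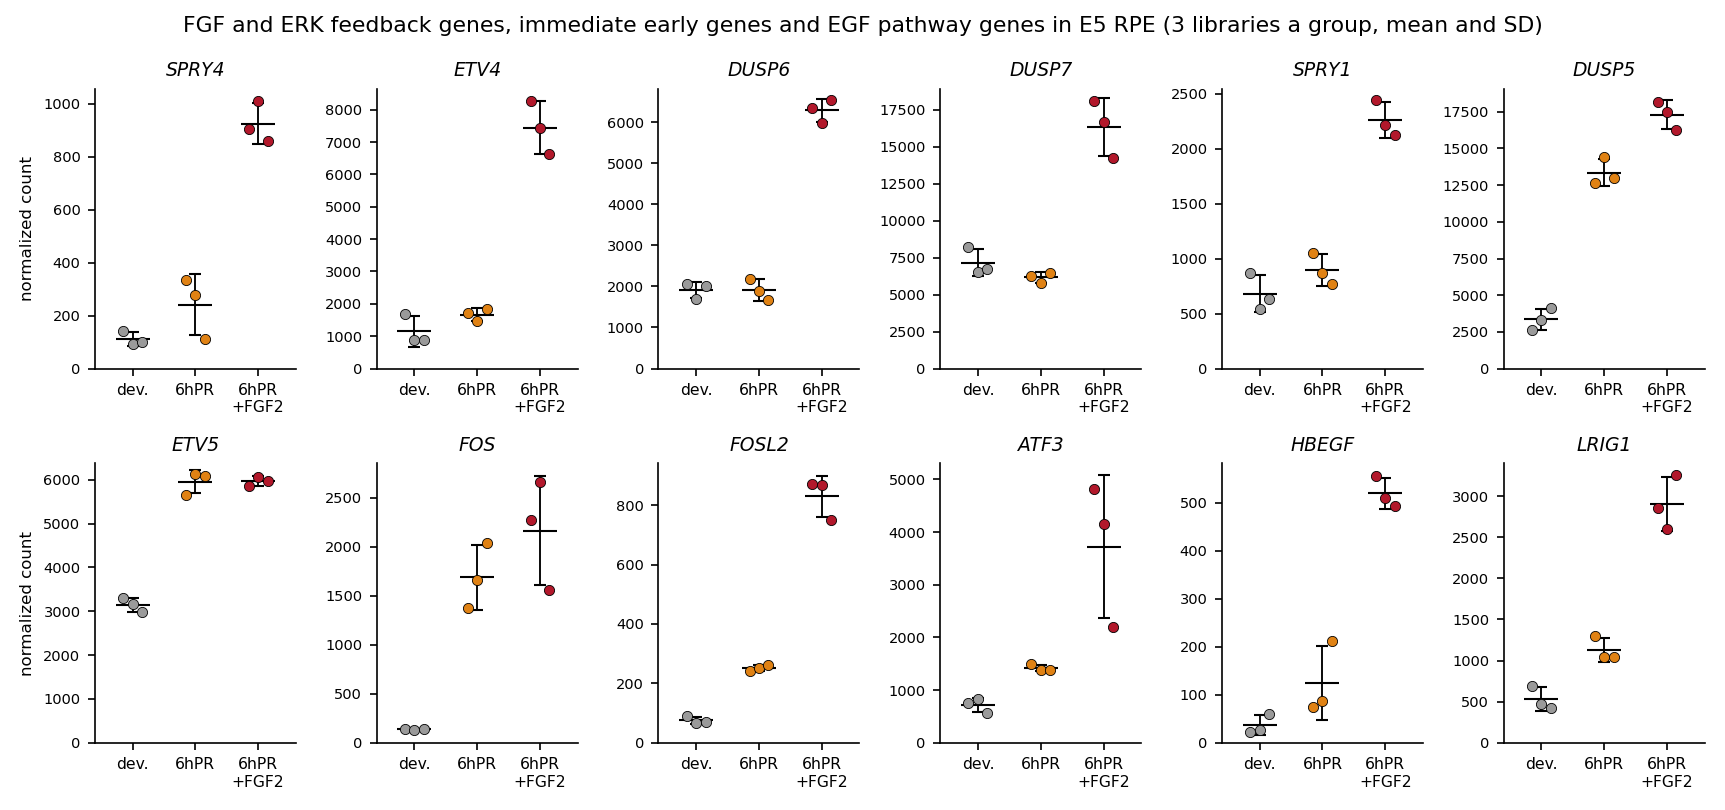
Normalized counts (y axes, from 0) in the 3 libraries of E5 developing, 6hPR and 6hPR + FGF2 RPE, with the mean and SD (n = 3), for FGF and ERK feedback genes, immediate early genes and EGF pathway genes. *SPRY4*, *ETV4*, *DUSP6* and *DUSP7* stand highest with FGF2, whereas *DUSP5* and *ETV5* are already high in 6hPR RPE.

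Among FGF ligands and receptors, which start the cascade, 6 of 21 measured members rose and 2 fell, 28.6% and 9.52% against 15.1% and 13.7% over all genes. The median was -0.07, and between -0.04 without developing replicate 3 and 0.11 without 6hPR + FGF2 replicate 2. *FGFR1* was at 17653, 14112 and 18025 normalized counts in developing RPE and at 39916, 38068 and 41036 in 6hPR + FGF2 RPE, a log2 fold change of 1.27 (adjusted p = 8.4e-07, SE 0.11), whereas *FGFR3* was at 32394, 25416 and 30144 normalized counts in developing RPE and at 11586, 12199 and 10295 in 6hPR + FGF2 RPE, a log2 fold change of -1.36 (adjusted p = 2.2e-06, SE 0.13). The groups were separate for both receptors. *FGF10*, a ligand of epithelial branching, rose from 34.5, 17 and 6.11 to 163, 145 and 114 (log2 3.13, between 2.50 without developing replicate 3 and 3.70 without developing replicate 1), and transcript of chicken *FGF2* itself rose by 1.21. The beads carried bovine FGF2 protein, so this is transcript of the embryo. *FGF19*, a ligand made by developing retina, was at 255, 1969 and 46.4 normalized counts in developing RPE and at 18.7, 24 and 23.4 in 6hPR + FGF2 RPE, with developing replicate 2 far above the others. Its log2 fold change of -3.68 (adjusted p = 0.0471) was -2.29 without that library (0.22), and the call was lost with only the 6 libraries fitted, with limma without the trend (0.068) and without any single library but developing replicate 3, so that 1 member in place of 2 fell without each of those 5 libraries.

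Immediate early genes, which cells transcribe within minutes of a stimulus, were higher at 6 h. 21 of 27 measured members rose and 0 fell (median 1.14; for decreases, 1 at an unadjusted p under 0.05, 1 by edgeR and 1 by DESeq2), and without developing replicate 2 17 rose and 1 fell. *FOS*, a subunit of the AP-1 transcription factor, was at 138, 130.0 and 139 normalized counts in developing RPE and at 2276, 2658 and 1557 in 6hPR + FGF2 RPE, a log2 fold change of 3.96 (adjusted p = 2.6e-06, SE 0.39). *FOSL2*, another AP-1 subunit, was at 88.9, 68 and 68.4 normalized counts in developing RPE and at 871, 868 and 749 in 6hPR + FGF2 RPE, a log2 fold change of 3.46 (adjusted p = 2.9e-08, SE 0.21). *ATF3*, a stress-induced factor, was at 748, 824 and 568 normalized counts in developing RPE and at 4815, 4146 and 2197 in 6hPR + FGF2 RPE, a log2 fold change of 2.32 (adjusted p = 3.3e-06, SE 0.24), with 6hPR + FGF2 replicate 3 below the other two. *EGR2* and *EGR3*, zinc-finger factors downstream of ERK, rose by 2.41 and 2.20. *FOS* had reached 1374, 1656 and 2038 without FGF2, a log2 rise of 3.61 over developing RPE (adjusted p = 1.3e-05), and differed by 0.34 from 6hPR to 6hPR + FGF2 (0.56). *FOSL2* rose at both steps, by 1.74 and 1.72. Over the list, 11 rose and 2 fell after retinectomy and 12 rose and 2 fell between 6hPR and 6hPR + FGF2.

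In the EGF receptor pathway, a parallel input to ERK, 6 of 15 measured members rose and 0 fell, 40.0% and 0% against 15.1% and 13.7% over all genes. The median was 0.41, and between 0.27 without 6hPR + FGF2 replicate 3 and 0.99 without developing replicate 1 (for decreases, 0 at an unadjusted p under 0.05, 0 by edgeR and 0 by DESeq2). The ligand *HBEGF* was at 22, 27 and 59.8 normalized counts in developing RPE and at 555, 509.6 and 494 in 6hPR + FGF2 RPE, a log2 fold change of 3.96 (adjusted p = 5.6e-06, SE 0.43). *NRG1*, a ligand of the ERBB receptors, was at 14.6, 54 and 13.4 normalized counts in developing RPE and at 192, 176 and 172 in 6hPR + FGF2 RPE, a log2 fold change of 3.00 (adjusted p = 1.5e-04, SE 0.46), and between 2.65 without developing replicate 3 and 3.63 without developing replicate 2. The treated libraries were close to each other for both ligands while the developing libraries were scattered. 2 inhibitors of the receptor rose as well, *LRIG1* by 2.48 and *ERRFI1* by 1.86 on the log2 scale. *ERRFI1* stood at 11061, 9905 and 10561 in 6hPR RPE against 9721, 8984 and 8650.0 with FGF2, so its level was no higher with FGF2.

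Transcription factors of the neural retina were higher in part, and the calls differed with developing replicate 2 left out. 9 of 20 measured members rose and 1 fell (median 0.50), and without developing replicate 2 the count was 10 rose and 1 fell. *PAX6*, an eye field factor that both retina and RPE use, was at 3973, 6003 and 3114 normalized counts in developing RPE and at 7300.5, 6945 and 8509.6 in 6hPR + FGF2 RPE, a log2 fold change of 0.85 (adjusted p = 0.0065, SE 0.21). *MEIS1* (0.49), *MEIS2* (0.51), *TBX3* (0.69), *TBX5* (1.05) and *LHX2* (0.44), factors of the eye field or of its patterning, rose too.

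3 of these factors were called only without developing replicate 2, and several calls were fragile. *SIX6*, an eye field factor, was at 695, 3469.8 and 179.5 in developing RPE and 2289, 2007 and 3772 in 6hPR + FGF2 RPE, so the groups overlapped through replicate 2 (log2 1.77, adjusted p = 0.075). Without it the log2 fold change was 2.87 (8.8e-04). *RAX* and *RAX2*, homeobox factors of the eye field and of the retina, went in the same way from 0.76 (0.29) to 1.58 (0.0038) and from 0.90 (0.32) to 1.87 (0.009). *TBX2* was called higher only without developing replicate 3 (0.038). *LHX2* lost its call without any single library but 6hPR + FGF2 replicate 2, and with array weights (0.067), quantile normalization (0.0507), the replicate block (0.0523) or limma without the trend (0.058). *TBX5* lost it without developing replicate 3 (0.12) or any 6hPR + FGF2 library, and over the list 6 in place of 9 rose without 6hPR + FGF2 replicate 1. *PAX6*, *TBX5*, *LHX2* and *MEIS1* were not called with only the 6 libraries fitted.

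Further members of the list were not called or fell. *SOX2*, a progenitor factor, was at 484, 1045 and 121 in developing RPE and 253, 236 and 735 with FGF2 (log2 -0.16), with wide spread in both groups. *NR2E1* (-0.18), *SIX3* (-0.25), *FOXD1* (-0.02), *VAX1* (0.10), *TBX2* (0.26) and *LIN28B* (-0.30) were not called, but *SIX3* was with array weights (0.016). *LIN28A*, an RNA-binding protein of immature cells, was near its detection limit and fell (at 26.1, 18 and 26.9 normalized counts in developing RPE and at 0, 4.81 and 7.12 in 6hPR + FGF2 RPE, adjusted p = 0.015), a call lost with only the 6 libraries fitted and without 6hPR + FGF2 replicate 1 (0.074). *PAX6* stood at 6859, 7311 and 7305 in 6hPR RPE (log2 0.77 over developing RPE, adjusted p = 0.017) and differed by 0.08 from 6hPR to 6hPR + FGF2 (0.82). *SIX6* stood at 1147, 1028 and 584 without FGF2, with differences of 0.22 from developing RPE (0.88) and 1.55 to 6hPR + FGF2 (0.12).

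**Figure D3:**
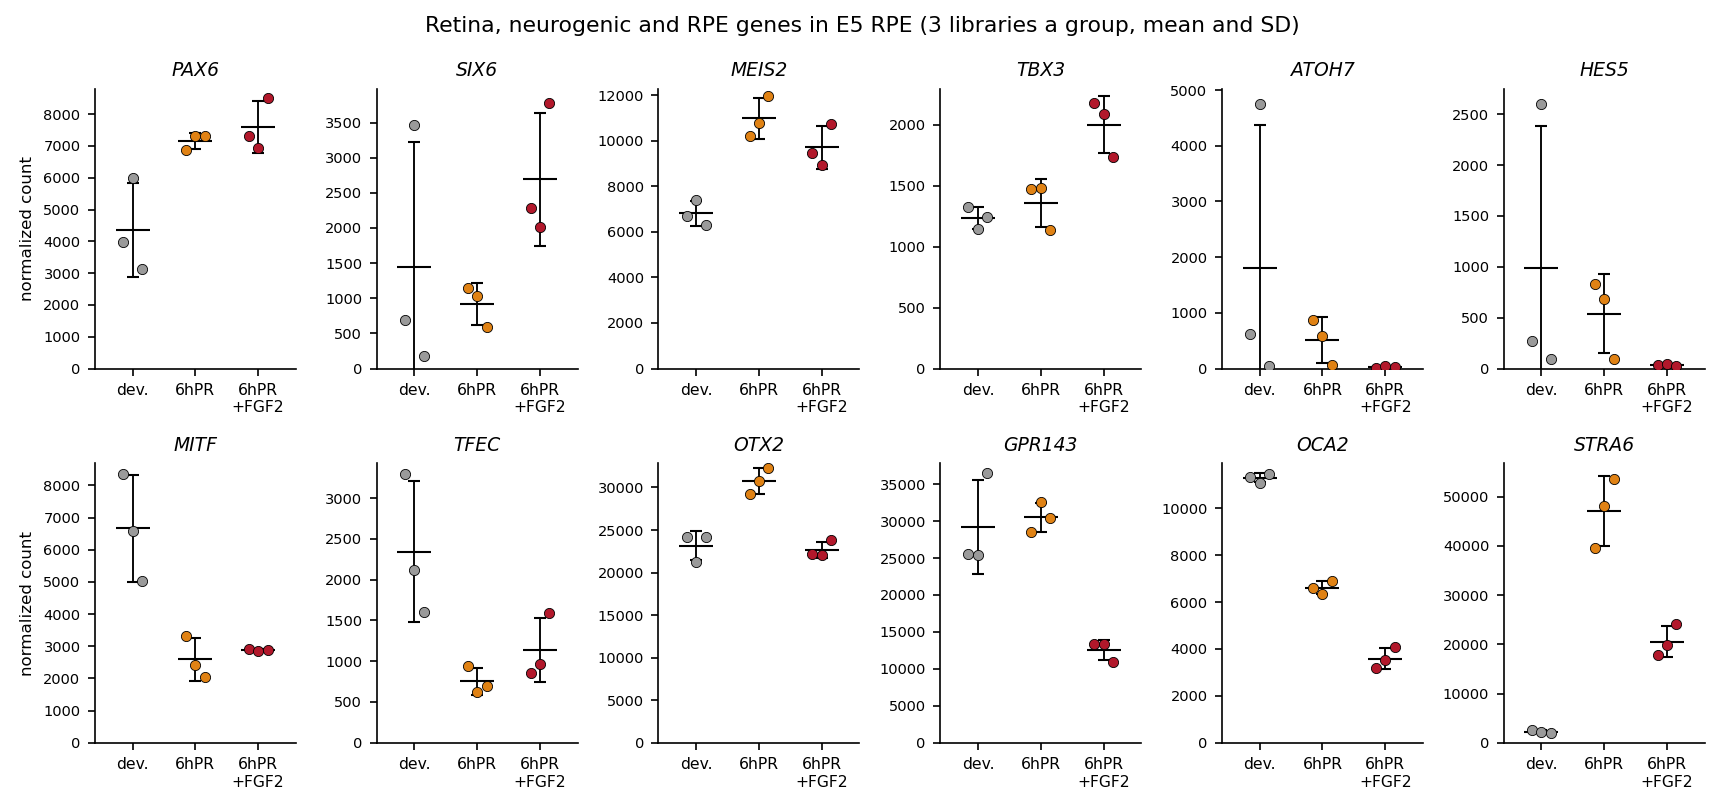
Normalized counts (y axes, from 0) in the 3 libraries of E5 developing, 6hPR and 6hPR + FGF2 RPE, with the mean and SD (n = 3), for neural retina, neurogenic and RPE genes. Points within a group stand in the order of the replicate numbers. Error bars that reach below 0 are clipped there. Developing replicate 2 is the highest developing library for *PAX6*, *SIX6*, *ATOH7* and *HES5*. Against developing RPE, *MITF*, *GPR143* and *OCA2* are lower in 6hPR + FGF2 RPE and *STRA6* is higher. *MITF* is low in 6hPR RPE too, and *STRA6* is highest there.

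Genes of neuron formation pointed the other way with developing replicate 2 included, and their counts depended on single libraries. 1 of 22 measured members rose and 5 fell, 4.55% and 22.7% against 15.1% and 13.7% over all genes. The median was -0.92, and between -1.84 without developing replicate 3 and -0.07 without developing replicate 2. Without developing replicate 2 the count was 2 rose and 1 fell. The number lower was 11 without developing replicate 3, 3 without developing replicate 1 and 2 without 6hPR + FGF2 replicate 1 or 3. *ATOH7*, the factor that specifies retinal ganglion cells, was at 625, 4744 and 52.5 normalized counts in developing RPE and at 16.9, 37.5 and 19.3 in 6hPR + FGF2 RPE, a log2 fold change of -4.52 (adjusted p = 0.028, SE 1.44). Its developing libraries differed from each other by more than any treated library differed from the lowest of them. The fold change was between -6.19 without developing replicate 3 and -2.95 without developing replicate 2, and the call was lost without developing replicate 1 (adjusted p = 0.056) or 2 (0.14) or 6hPR + FGF2 replicate 1 (0.084) or 3 (0.072). *SNCG*, a synuclein of ganglion cells, fell by 2.09 (between -2.50 without developing replicate 3 and -1.36 without developing replicate 2) and lost its call without developing replicate 2 (0.1) or 6hPR + FGF2 replicate 1 (0.069) or 3 (0.067). *POU4F3*, a ganglion cell factor at 76.3, 861 and 18.3 in developing RPE and 8.43, 9.62 and 10.2 with FGF2, was not called (adjusted p = 0.072), but was by DESeq2 (1.2e-04), by edgeR (0.0098), with array weights (0.017), with a pseudocount of 5 (0.0459) and without developing replicate 3 (0.022). *EBF3*, a factor of differentiating neurons, fell by 1.33, and *SYT1*, a synaptic vesicle protein, rose by 0.97, both with every library apart. *ATOH7*, *SNCG* and *EBF3* were not called with only the 6 libraries fitted. Of the 17 neuron markers 4 fell, a number that became 9 without developing replicate 3, 1 without 6hPR + FGF2 replicate 3 and 0 without developing replicate 2 or 6hPR + FGF2 replicate 1. The median log2 fold change of these markers was -0.94 with all libraries and 0.24 without developing replicate 2, where 1 rose. Their summed levels in developing replicates 1 and 3 (14959 and 12477) were below those of every 6hPR + FGF2 library. Their part in these results was not tested. In bulk RNA, fewer cells of a type and less RNA per cell cannot be told apart.

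In the Notch pathway, through which neighbouring cells hold each other back from differentiating, more members fell than rose. 1 of 23 measured members rose and 9 fell (median -0.26, and between -0.39 without developing replicate 3 and -0.07 without developing replicate 2), and without developing replicate 2 1 rose and 8 fell. The 9 were ligands, targets and a modifier. *DLL1*, a ligand, was at 1458, 2471 and 1723 normalized counts in developing RPE and at 1003, 985 and 1075 in 6hPR + FGF2 RPE, a log2 fold change of -0.85 (adjusted p = 0.0012, SE 0.17), with the treated libraries within a narrow range. *HEY1*, a target and transcriptional repressor, was at 7279.6, 7056 and 9850.3 normalized counts in developing RPE and at 4758, 4795 and 2856 in 6hPR + FGF2 RPE, a log2 fold change of -0.99 (adjusted p = 3.0e-04, SE 0.16). *HES5*, the Notch target of neural progenitors, was at 269.7, 2598 and 96.5 normalized counts in developing RPE and at 38.4, 44.2 and 23.4 in 6hPR + FGF2 RPE, a log2 fold change of -3.56 (adjusted p = 0.0093, SE 0.93), and -2.22 without developing replicate 2 (adjusted p = 0.041), where it was still called. *HES4* fell by 0.75, and *MAML2*, a coactivator, rose by 1.13. With only the 6 libraries fitted, *DLL1*, *HEY1* and *HES5* were not called. In 6hPR RPE *HES5* was at 831, 686 and 97.1 and *DLL1* at 2026, 1941 and 1503, and both fell between 6hPR and 6hPR + FGF2, with differences of -3.46 (adjusted p = 0.014) and -0.83 (0.0023) on the log2 scale.

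Among the 8 RPE transcription factors measured, *MITF* and *TFEC* fell and *NR2F1* rose. *MITF*, the master regulator of pigment cells, was at 8370.0, 6594 and 5036 normalized counts in developing RPE and at 2917, 2848 and 2873 in 6hPR + FGF2 RPE, a log2 fold change of -1.18 (adjusted p = 0.0025, SE 0.25). Its highest treated library was below the lowest developing library. *TFEC*, its close relative, was at 3291, 2124 and 1602 normalized counts in developing RPE and at 858, 959.7 and 1588 in 6hPR + FGF2 RPE, a log2 fold change of -1.03 (adjusted p = 0.01, SE 0.27), and lost its call without 6hPR + FGF2 replicate 1 (0.057), which leaves 1 of the 8 lower, and with only the 6 libraries fitted. *NR2F1*, an orphan nuclear receptor, rose by 0.99 (adjusted p = 8.1e-05). *OTX2*, the homeobox factor that works with MITF, was at 24152, 21239 and 24140.3 normalized counts in developing RPE and at 22185, 22088 and 23788 in 6hPR + FGF2 RPE, a log2 fold change of -0.03 (adjusted p = 0.87, SE 0.10), and the groups overlapped. *OTX1* (-0.26), *SOX9* (-0.14), *NR2F2* (0.09) and *TFEB* (0.14) were not called either. *MITF* had fallen to 3334, 2420.5 and 2042 without FGF2 (-1.36, 0.0014), while *OTX2* was higher in 6hPR RPE (0.41, 0.0077) and lower again from 6hPR to 6hPR + FGF2 (-0.44, 0.0044).

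Melanin and melanosome genes changed in both directions. 5 of 28 measured members rose and 9 fell, 17.9% and 32.1% against 15.1% and 13.7% over all genes (median -0.26). The share that rose was near that over all genes. Without developing replicate 2, 5 rose and 10 fell. Without developing replicate 3, 3 in place of 5 rose. *OCA2*, a melanosome transporter, was at 11349, 11089.7 and 11476 normalized counts in developing RPE and at 3171, 3527 and 4077 in 6hPR + FGF2 RPE, a log2 fold change of -1.66 (adjusted p = 8.0e-07, SE 0.15). *GPR143*, the melanosome receptor altered in ocular albinism, was at 25599, 25427 and 36541 normalized counts in developing RPE and at 13336, 13407 and 10922 in 6hPR + FGF2 RPE, a log2 fold change of -1.20 (adjusted p = 1.2e-04, SE 0.18). These groups did not overlap. *SLC45A2*, a melanosome transporter, fell by 1.86, *MC1R*, the melanocortin receptor, by 1.83, and *RAB27A*, which moves melanosomes, by 0.86. The enzymes of melanin synthesis *TYR* (-0.25), *TYRP1* (-0.36) and *DCT* (-0.16), the fibril protein *PMEL* (0.25) and *RAB38* (-0.39) were not called. *GPNMB*, a melanosomal glycoprotein related to *PMEL*, was at 34487, 13722 and 10903 normalized counts in developing RPE and at 144716, 137614 and 135129 in 6hPR + FGF2 RPE, a log2 fold change of 3.01 (adjusted p = 3.9e-06, SE 0.31), and stood near the treated level in 6hPR RPE (113818, 119227 and 140415, step 0.17, adjusted p = 0.74).

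In 6hPR RPE some pigment genes stood near the developing level and others did not. Between 6hPR and 6hPR + FGF2, 3 rose and 9 fell, whereas 3 rose and 2 fell between developing and 6hPR RPE. *GPR143* was at 28515, 32523 and 30411 without FGF2, a log2 difference of 0.08 from developing RPE (0.81), and a difference of -1.28 from 6hPR to 6hPR + FGF2 (1.5e-04). *SLC45A2* was low without FGF2 as well, at 1071, 941 and 828 (-1.43, 2.2e-04).

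Visual cycle and mature RPE genes were also split. 4 of 22 measured members rose and 7 fell, 18.2% and 31.8% against 15.1% and 13.7% over all genes. The share that rose was near that over all genes. The median was -0.20, and between -0.36 without developing replicate 2 and 0.07 without developing replicate 3. Only 3 fell without developing replicate 3 or 6hPR + FGF2 replicate 3. *STRA6*, the receptor that takes up retinol, was at 2622, 2131 and 1971 normalized counts in developing RPE and at 17802, 19808 and 24022 in 6hPR + FGF2 RPE, a log2 fold change of 3.20 (adjusted p = 1.6e-08, SE 0.18), and stood higher still in 6hPR RPE (39592, 48098 and 53605). *RPE65*, the isomerase of the visual cycle, was at 716, 638 and 878 normalized counts in developing RPE and at 184, 194 and 214 in 6hPR + FGF2 RPE, a log2 fold change of -1.90 (adjusted p = 9.5e-05, SE 0.28). Neither pair of groups overlapped. *LRAT*, which esterifies retinol, rose by 2.12, *EZR*, the ezrin of apical microvilli, by 2.45, and *BEST1*, the bestrophin chloride channel, by 1.28. *RLBP1*, the retinaldehyde carrier (-0.39), was not called. *RBP4*, the retinol carrier, was at 875, 1939 and 206 and 148, 117 and 126 (adjusted p = 0.16), groups that did not overlap, and was called by edgeR (0.023) and DESeq2 (0.02). Of retinoic acid genes, 3 of 18 measured members rose and 7 fell, 16.7% and 38.9% against 15.1% and 13.7% over all genes (median -0.47). *ALDH1A3*, which makes retinoic acid, rose from 1661, 5154 and 711 to 11005, 9337 and 22305 (log2 2.85, adjusted p = 0.0025, between 2.17 without developing replicate 3 and 3.60 without developing replicate 2, and not called with only the 6 libraries fitted), and *CRABP2*, which carries it to the nucleus, fell by 1.53.

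Genes of the signaling pathways changed in both directions. In the BMP pathway, which promotes RPE fate, 5 of 25 measured members rose and 10 fell, 20.0% and 40.0% against 15.1% and 13.7% over all genes. The median was -0.15, and between -0.30 without developing replicate 3 and -0.06 without developing replicate 1. Without developing replicate 2, 4 rose and 7 fell. *FST*, follistatin, which binds activin and BMPs, was at 30.3, 18 and 34.2 normalized counts in developing RPE and at 1899.6, 1415 and 1029 in 6hPR + FGF2 RPE, a log2 fold change of 5.70 (adjusted p = 5.6e-07, SE 0.48), and the rise lay between 6hPR and 6hPR + FGF2, with 27, 52.7 and 113 in 6hPR RPE. *NOG*, noggin, rose by 1.15, and *SMAD6*, an inhibitory SMAD, by 0.96. *CHRDL1*, a chordin-like antagonist, was at 5009, 13976 and 6404 normalized counts in developing RPE and at 2708, 2887 and 2151 in 6hPR + FGF2 RPE, a log2 fold change of -1.58 (adjusted p = 4.4e-04, SE 0.27). The number of BMP genes that fell was the less stable one: it was 4, 5 and 5 without 6hPR + FGF2 replicates 1, 2 and 3, and only 3 rose without 6hPR + FGF2 replicate 1 or 2 or developing replicate 3. *CHRDL1* was not called with only the 6 libraries fitted.

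In the TGF-beta and activin pathway, 8 of 24 measured members rose and 4 fell, 33.3% and 16.7% against 15.1% and 13.7% over all genes. The share that fell was near that over all genes. The median was 0.31, and between 0.18 without developing replicate 3 and 0.40 without developing replicate 1. Without developing replicate 1, 13 rose. *LTBP2*, which binds microfibrils, was at 588, 386 and 658 normalized counts in developing RPE and at 2773, 2595 and 2921 in 6hPR + FGF2 RPE, a log2 fold change of 2.38 (adjusted p = 2.1e-05, SE 0.29), and *INHBB*, an activin subunit, rose by 2.12. *TGIF1*, a corepressor of SMADs, rose by 1.02, and *TGFBI*, a matrix protein, fell by 1.15. In the WNT pathway 8 of 47 measured members rose and 6 fell, near the share over all genes, and 13 rose without developing replicate 1. Inhibitors were among the members that rose: besides *DKK1*, *WIF1* was at 59.6, 17 and 22 normalized counts in developing RPE and at 126, 137 and 139 in 6hPR + FGF2 RPE (log2 2.23), and *NOTUM*, which removes the lipid of WNT proteins, rose by 1.62. *SP5*, a target gene, rose by 2.01. *SP5* and *WIF1* stood at 246, 329.9 and 268 and 159, 147 and 132 without FGF2, and *SP5* was lower with it than without (log2 -0.91, adjusted p = 0.0084). In the Hedgehog pathway 2 of 13 measured members rose and 4 fell, 15.4% and 30.8% against 15.1% and 13.7% over all genes. The share that rose was near that over all genes. *IHH*, a ligand, was at 2335, 1550.4 and 2548 in developing RPE and at 466, 573 and 475 in 6hPR + FGF2 RPE (log2 -2.06). The effector *GLI2* (-0.89) was lower too. The pair that rose, *GLI3* and *CDON*, was reduced to 1 member without 6hPR + FGF2 replicate 1 or 2 or developing replicate 3 and to 0 without 6hPR + FGF2 replicate 3. In the YAP and TEAD pathway 5 of 15 measured members rose and 4 fell, 33.3% and 26.7% against 15.1% and 13.7% over all genes. *WWTR1*, which encodes TAZ, and *AMOT* rose by 1.25 and 0.81, and *LATS2* and *AMOTL2* fell by 0.79 and 0.83. The 5 that rose became 3 without developing replicate 2 or 6hPR + FGF2 replicate 2 or 3. *NOTUM* and *AMOT* were not called with only the 6 libraries fitted.

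DNA replication genes fell nearly as a whole. 0 of 39 measured members rose and 37 fell (median -0.89; for increases, 0 at an unadjusted p under 0.05, 0 by edgeR and 0 by DESeq2), and without developing replicate 2 1 rose and 34 fell. *MCM5*, a subunit of the replicative helicase, was at 6484, 7269.8 and 6217 normalized counts in developing RPE and at 2256, 2057 and 2153 in 6hPR + FGF2 RPE, a log2 fold change of -1.62 (adjusted p = 2.5e-07, SE 0.13). *GINS1*, which activates that helicase, was at 794, 907 and 954 normalized counts in developing RPE and at 243, 257 and 243 in 6hPR + FGF2 RPE, a log2 fold change of -1.83 (adjusted p = 5.0e-08, SE 0.12). *RRM2*, which makes deoxynucleotides, was at 11069, 17632 and 9226 normalized counts in developing RPE and at 3721, 3511 and 4109.9 in 6hPR + FGF2 RPE, a log2 fold change of -1.69 (adjusted p = 5.6e-06, SE 0.18). The treated libraries of all 3 genes lay close together and below the developing ones. *SLBP*, which binds histone mRNA (-1.67), and *ORC1*, of the origin recognition complex (-1.53), fell likewise. Of mitosis genes, 0 of 37 measured members rose and 26 fell (median -0.49; for increases, 0 at an unadjusted p under 0.05, 0 by edgeR and 0 by DESeq2), but 15 fell without developing replicate 2. *NUF2*, *BIRC5*, *SPC25* and *MAD2L1*, of the kinetochore and its checkpoint, fell by 0.90, 0.84, 0.80 and 0.77, and *SMC2*, a condensin, by 0.88.

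The fall in these genes was present without FGF2. In 6hPR against developing RPE, 1 rose and 32 fell among the 39 replication genes, and between 6hPR and 6hPR + FGF2 2 rose and 5 fell. For mitosis the counts were 0 rose and 21 fell and 2 rose and 3 fell. *MCM5* stood at 2855, 2791 and 2482 in 6hPR RPE (-1.30, 4.2e-06), and the difference from 6hPR to 6hPR + FGF2 was -0.33 (0.066). Of the regulators of entry into the cycle 4 of 24 measured members rose and 9 fell, 16.7% and 37.5% against 15.1% and 13.7% over all genes. The share that rose was near that over all genes. The median was -0.17, and between -0.30 without developing replicate 3 and -0.12 without developing replicate 2. *CCNE2*, the cyclin that starts S phase, was at 1334, 1950.5 and 1019.8 normalized counts in developing RPE and at 357, 342 and 379 in 6hPR + FGF2 RPE, a log2 fold change of -1.94 (adjusted p = 1.4e-06, SE 0.18). *E2F1* (-1.32) and *E2F8* (-1.20), factors that govern replication genes, fell, and *E2F7* (-0.45) was not called, but was called lower without developing replicate 3 (0.0097) and with array weights (0.032). *CDKN1A*, the inhibitor p21, was at 104, 30.0 and 73.3 normalized counts in developing RPE and at 488, 442 and 612 in 6hPR + FGF2 RPE, a log2 fold change of 3.05 (adjusted p = 1.7e-05, SE 0.37), and rose mainly between 6hPR (105, 119 and 136) and 6hPR + FGF2 (2.09, 9.1e-04).

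**Figure D4:**
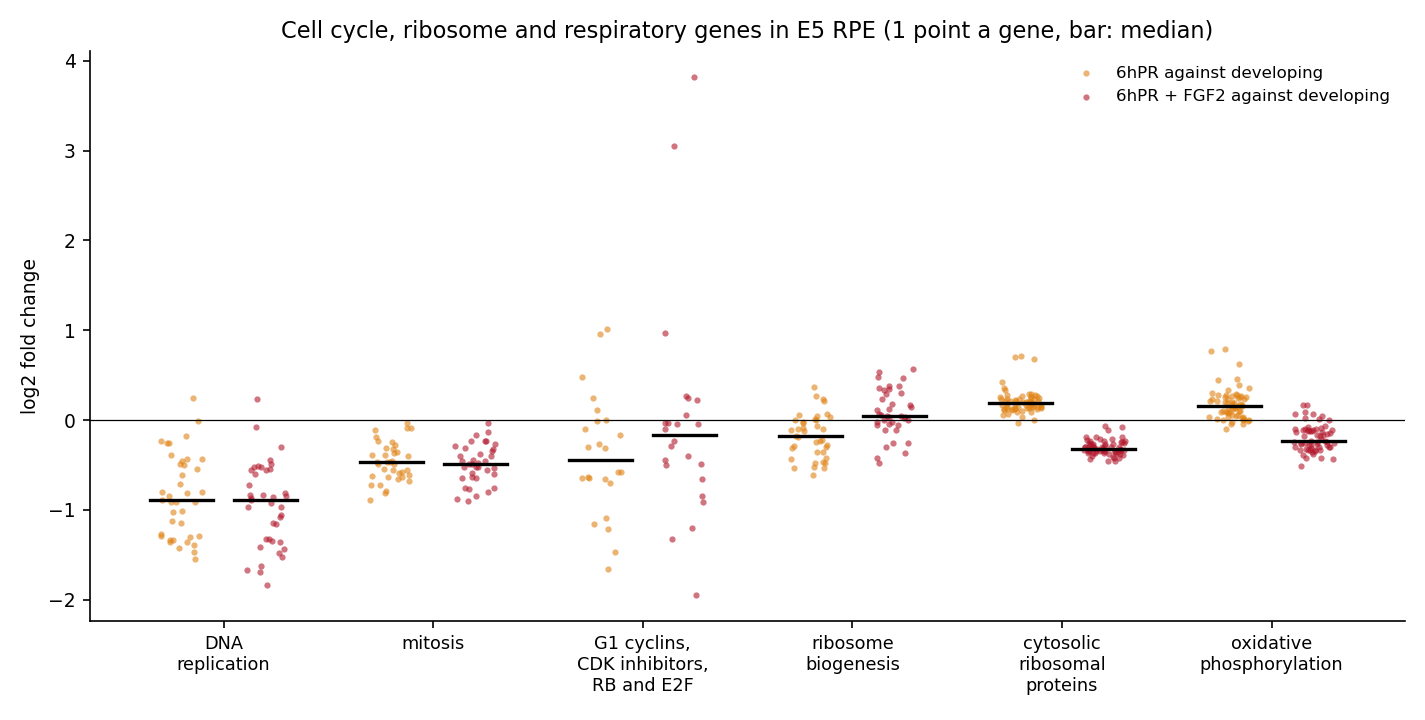
Log2 fold change (y axis) of each member of 6 gene lists (x axis) in E5 RPE, for 6hPR against developing (orange) and 6hPR + FGF2 against developing (red), 1 point a gene, with a black bar at the median. Both comparisons share the developing libraries. DNA replication genes lie below 0 in both, and cytosolic ribosomal proteins lie below 0 only with FGF2.

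Ribosome genes differed mainly between 6hPR and 6hPR + FGF2 RPE. Cytosolic ribosomal proteins were lower in all 64 cases with FGF2 (median -0.32, and between -0.45 without developing replicate 1 and -0.16 without developing replicate 3). Only 7 fell, 10.9% against 13.7% over all genes (for increases, 0 at an unadjusted p under 0.05, 0 by edgeR and 0 by DESeq2). That count was 34 without developing replicate 1, and 1 to 4 without any other library. Between 6hPR and 6hPR + FGF2, 0 rose and 49 fell. *RPL21* was at 60458, 73972 and 78581 normalized counts in developing RPE and at 50516, 49425 and 56506 in 6hPR + FGF2 RPE, a log2 fold change of -0.44 (adjusted p = 0.0079, SE 0.11), not called with only the 6 libraries fitted. Of oxidative phosphorylation subunits 0 of 63 measured members rose and 5 fell, 7.94% against 13.7% over all genes (median -0.23, and between -0.34 without developing replicate 1 and -0.04 without developing replicate 3; for increases, 0 at an unadjusted p under 0.05, 0 by edgeR and 0 by DESeq2). Without developing replicate 1, 24 fell, and 1 to 3 fell without developing replicate 3 or any 6hPR + FGF2 library. From 6hPR to 6hPR + FGF2, 0 rose and 26 fell. *NDUFA9*, of complex I, fell by 0.28, again not with only the 6 libraries fitted. Of ribosome biogenesis factors 16 rose and 1 fell between 6hPR and 6hPR + FGF2, 0 rose and 12 fell between developing and 6hPR RPE (for increases, 0 at an unadjusted p under 0.05, 0 by edgeR and 0 by DESeq2), and in the main comparison 9 of 39 rose and 3 fell (1 without developing replicate 3 or 6hPR + FGF2 replicate 1 or 2). In that comparison the shares were 23.1% and 7.69%, against 15.1% and 13.7% over all genes. *UTP20* (0.54), *RRP12* (0.48) and *WDR43* (0.46), of the small subunit's assembly, rose, and *RPF2* (-0.48) fell. *UTP20*, *RRP12* and *RPF2* were not called with only the 6 libraries fitted.

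Metabolic and stress genes changed in part. Of glycolysis and hypoxia genes, 12 of 31 measured members rose and 2 fell (median 0.12, and between 0.08 without developing replicate 3 and 0.18 without developing replicate 1), and 8 rose and 1 fell without developing replicate 3, while 9 rose and 1 fell without 6hPR + FGF2 replicate 1. *ENO2*, an enolase, was at 96.2, 110.0 and 78.2 normalized counts in developing RPE and at 759.6, 727 and 742 in 6hPR + FGF2 RPE, a log2 fold change of 2.98 (adjusted p = 6.2e-07, SE 0.25). *NDRG1*, a hypoxia-induced gene, was at 1084, 7324 and 519 normalized counts in developing RPE and at 9882, 8867 and 8309 in 6hPR + FGF2 RPE, with developing replicate 2 near the treated level (log2 2.49, between 1.67 without developing replicate 3 and 3.58 without developing replicate 2, and not called by edgeR, 0.073, or with only the 6 libraries fitted). *DDIT4*, an inhibitor of mTORC1, rose by 1.06. Of cholesterol synthesis genes 0 of 23 measured members rose and 8 fell (median -0.29, and between -0.44 without developing replicate 1 and -0.14 without developing replicate 2; for increases, 3 at an unadjusted p under 0.05, 0 by edgeR and 0 by DESeq2), but 13 fell without developing replicate 1 and 5 without developing replicate 2 or 6hPR + FGF2 replicate 1 or 2. *NSDHL* (-1.61), *DHCR7* (-0.99) and *CYP51A1* (-0.84), late enzymes of that pathway, were all highest in developing replicate 2 and were not called with only the 6 libraries fitted. Of heat shock and ER stress genes 7 of 35 measured members rose and 6 fell (20.0% and 17.1%), near the 15.1% and 13.7% over all genes. *BAG3*, a chaperone partner, rose by 1.23 and *ASNS*, asparagine synthetase, by 0.84. *HSPB1*, a small heat shock protein, rose by 2.51 (between 1.71 without developing replicate 2 and 3.20 without developing replicate 3, and not called with only the 6 libraries fitted). Without developing replicate 2, 8 rose and 1 fell of the heat shock and ER stress genes, and the number that fell was 3, 1 and 3 without 6hPR + FGF2 replicates 1, 2 and 3. Of lysosome genes 9 of 36 measured members rose and 3 fell (median 0.20, and between 0.12 without developing replicate 1 and 0.24 without developing replicate 3): *CTSK*, a cathepsin, was at 668, 517 and 448 normalized counts in developing RPE and at 6294, 5589.7 and 6097 in 6hPR + FGF2 RPE, a log2 fold change of 3.48 (adjusted p = 1.8e-08, SE 0.20), and *CTSD*, *GUSB* and *PSAP* rose by 1.32, 1.11 and 0.82.

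Among chemokines, cytokines and their signaling genes more rose than fell. 24 of 42 measured members rose and 2 fell (median 1.13), and 20 rose and 2 fell without developing replicate 2. The chemokine *CCL4* with the identifier ENSGALG00000034478 was at 6.27, 0 and 4.89 normalized counts in developing RPE and at 6638, 5033 and 1186 in 6hPR + FGF2 RPE, a log2 fold change of 10.34 (adjusted p = 1.1e-06, SE 0.94) (between 9.14 without developing replicate 2 and 11.10 without 6hPR + FGF2 replicate 3). It was near silent in 6hPR RPE (20.9, 41.5 and 52.3), and 6hPR + FGF2 replicate 3 was well below replicates 1 and 2. *IL8*, the neutrophil attractant interleukin 8, was at 23, 7 and 12.2 normalized counts in developing RPE and at 435, 348 and 296 in 6hPR + FGF2 RPE, a log2 fold change of 4.76 (adjusted p = 1.8e-06, SE 0.46), and at 15.7, 18 and 20.9 in 6hPR RPE. *SOCS3*, which restrains cytokine receptors, was at 145, 85 and 160.0 normalized counts in developing RPE and at 2286, 2388 and 2056 in 6hPR + FGF2 RPE, a log2 fold change of 4.15 (adjusted p = 5.8e-06, SE 0.45), and had risen to 1209, 1425 and 1877 without FGF2. *CCL19* (ENSGALG00000046192) rose by 3.53. For the other *CCL19* gene (ENSGALG00000028256) the fitted difference was 1.76, between 0.40 without developing replicate 2 and 2.95 without developing replicate 1. A second *CCL4* gene (ENSGALG00000032717) was low in all libraries (0, 0 and 8.55 and 23.4, 16.3 and 24.4), and its call was lost without developing replicate 1 or 2 and by edgeR and DESeq2; reads may be shared between the copies.

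The markers of blood and other cells were set beside this. Of 13 leukocyte markers 5 rose and 0 fell (for decreases, 0 at an unadjusted p under 0.05, 0 by edgeR and 0 by DESeq2), and their summed level was 8045 to 10204 normalized counts in developing RPE and 11194 to 15772 with FGF2. The share that rose was 38.5%, against 15.1% over all genes. *CD74*, the invariant chain of antigen presentation, rose by 2.66, *MARCO*, a macrophage receptor, by 2.72, and *CYBB*, the phagocyte oxidase, by 2.13. Of 11 erythrocyte markers 0 changed (for increases, 0 at an unadjusted p under 0.05, 0 by edgeR and 0 by DESeq2; for decreases, 0 at an unadjusted p under 0.05, 0 by edgeR and 0 by DESeq2), with sums of 440551 to 1305984 and 718394 to 939638. Of 9 endothelial markers 6 fell and 1 rose (66.7% and 11.1%, against 13.7% and 15.1% over all genes). Their sums were 39001 to 55273 in developing RPE and 32908 to 37265 with FGF2. Of 16 periocular mesenchyme markers 6 fell and 1 rose (37.5% and 6.25%), with overlapping sums of 157575 to 222774 and 116959 to 189680. Yolk sac or liver markers summed to 19139 to 32061 and 36534 to 38864 (1 of 11 rose, *APOH*, and 2 fell), and melanocyte and neural crest markers to 17340 to 18965 and 18823 to 21453 (2 of 8 rose and 2 fell). Lens markers summed to 531 to 843 and 774 to 876. Of the 12 lens markers 2 rose and 2 fell (16.7% each), near the 15.1% and 13.7% over all genes. These counts of 1 to 6 depended on single libraries: endothelial markers that rose were 0 without 6hPR + FGF2 replicate 1 or 2 or developing replicate 1 or 2, mesenchyme markers that fell were 2 without 6hPR + FGF2 replicate 3 or developing replicate 3, and melanocyte markers that rose were 0 without any library but developing replicate 1. No marker tested was at 0 in all 6 libraries, but only genes summing to 10 or more over the 18 libraries were tested. The mean over the 6 libraries was under 10 for 4 of the 12 lens markers, 2 of the 17 neuron markers and 1 of the 11 yolk sac or liver markers. The part of these cells in the results was not tested.

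Among matrix proteases with their inhibitors, and among integrin subunits, more members rose than fell. Of proteases and their inhibitors, 9 of 25 measured members rose and 3 fell (median 0.38, and between 0.08 without developing replicate 1 and 0.51 without developing replicate 3). Besides *MMP9*, *ADAM8* was at 70.0, 67 and 87.9 normalized counts in developing RPE and at 565, 501 and 618 in 6hPR + FGF2 RPE, a log2 fold change of 2.90 (adjusted p = 1.9e-06, SE 0.28), *ADAM19* rose by 2.17, and *TIMP2*, an inhibitor of matrix metalloproteinases, was at 11353, 10118 and 14709 normalized counts in developing RPE and at 59470, 55789 and 58368 in 6hPR + FGF2 RPE, a log2 fold change of 2.28 (adjusted p = 7.9e-07, SE 0.20). *ADAMTS15* fell by 2.67 (between -3.25 without 6hPR + FGF2 replicate 1 and -2.01 without 6hPR + FGF2 replicate 3, and not called with only the 6 libraries fitted). Of integrin subunits 7 of 17 measured members rose and 2 fell, 41.2% and 11.8%, and the share that fell was near that over all genes. The median was 0.04, and between -0.04 without developing replicate 2 and 0.20 without developing replicate 1. *ITGA2*, a collagen receptor subunit, was at 1026, 617 and 525 normalized counts in developing RPE and at 3259.7, 2991 and 3001 in 6hPR + FGF2 RPE, a log2 fold change of 2.15 (adjusted p = 2.5e-06, SE 0.21), and was at 863, 584 and 556 without FGF2. *ITGA4* (1.51), *ITGAV* (1.19), *ITGB8* (1.01) and *ITGA3* (0.90) rose too, *ITGB8* not with only the 6 libraries fitted, and 1 in place of 2 subunits fell without any library but developing replicate 2. Between 6hPR and 6hPR + FGF2 7 rose and 1 fell among the integrins, and 1 rose and 3 fell between developing and 6hPR RPE.

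Junction and mesenchymal genes showed no common direction. Of cadherins and tight junction genes 4 of 30 measured members rose and 5 fell, near the shares over all genes (median 0.00, and between -0.12 without developing replicate 2 and 0.08 without 6hPR + FGF2 replicate 3). *CLDN1*, a claudin, was at 691, 111 and 136 normalized counts in developing RPE and at 1721, 1469 and 1508 in 6hPR + FGF2 RPE, a log2 fold change of 2.84 (adjusted p = 0.0083, SE 0.73) (between 2.35 without developing replicate 2 and 3.67 without developing replicate 1), and *GJA1*, the gap junction protein connexin 43, was at 104937, 85613 and 95211 normalized counts in developing RPE and at 41178, 41246 and 53313 in 6hPR + FGF2 RPE, a log2 fold change of -1.08 (adjusted p = 0.0038, SE 0.25). The developing libraries were scattered for *CLDN1* and closer together for *GJA1*. *CDH11* and *CDH13* fell by 0.88 and 1.18. The number of junction genes that rose was 2 without 6hPR + FGF2 replicate 1 or 2. Of regulators of epithelial-mesenchymal transition and mesenchymal genes 7 of 19 measured members rose and 7 fell (median -0.12, and between -0.22 without developing replicate 2 and -0.01 without developing replicate 3). *TNC*, the matrix protein tenascin C, was at 16954, 8487 and 8635 normalized counts in developing RPE and at 98300.2, 87476 and 74760.1 in 6hPR + FGF2 RPE, a log2 fold change of 3.00 (adjusted p = 2.0e-07, SE 0.22), and *THBS1*, thrombospondin 1, rose by 1.16, whereas *SNAI1*, the transcription factor Snail, was at 4264, 3900.0 and 6273 normalized counts in developing RPE and at 2360.4, 2492 and 1965 in 6hPR + FGF2 RPE, a log2 fold change of -1.06 (adjusted p = 1.7e-04, SE 0.16). Of collagens, laminins and basement membrane genes 5 of 29 measured members rose and 4 fell, near the shares over all genes (median 0.02, and between -0.12 without developing replicate 2 and 0.14 without developing replicate 1). *LAMA5*, *COL6A2* and *HSPG2*, which encodes perlecan, rose by 1.74, 1.34 and 0.78, and *COL8A1* and *COL8A2*, collagens of vessels and basement membranes, fell by 2.64 and 1.18. Without developing replicate 2, 7 in place of 4 of these matrix genes fell, and of the mesenchymal list 4, 4 and 3 in place of 7 fell without 6hPR + FGF2 replicate 3, developing replicate 1 and developing replicate 3. *CLDN1*, *CDH13* and *COL8A2* were not called with only the 6 libraries fitted, nor *CDH13* with array weights (0.0543).

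**Figure D5:**
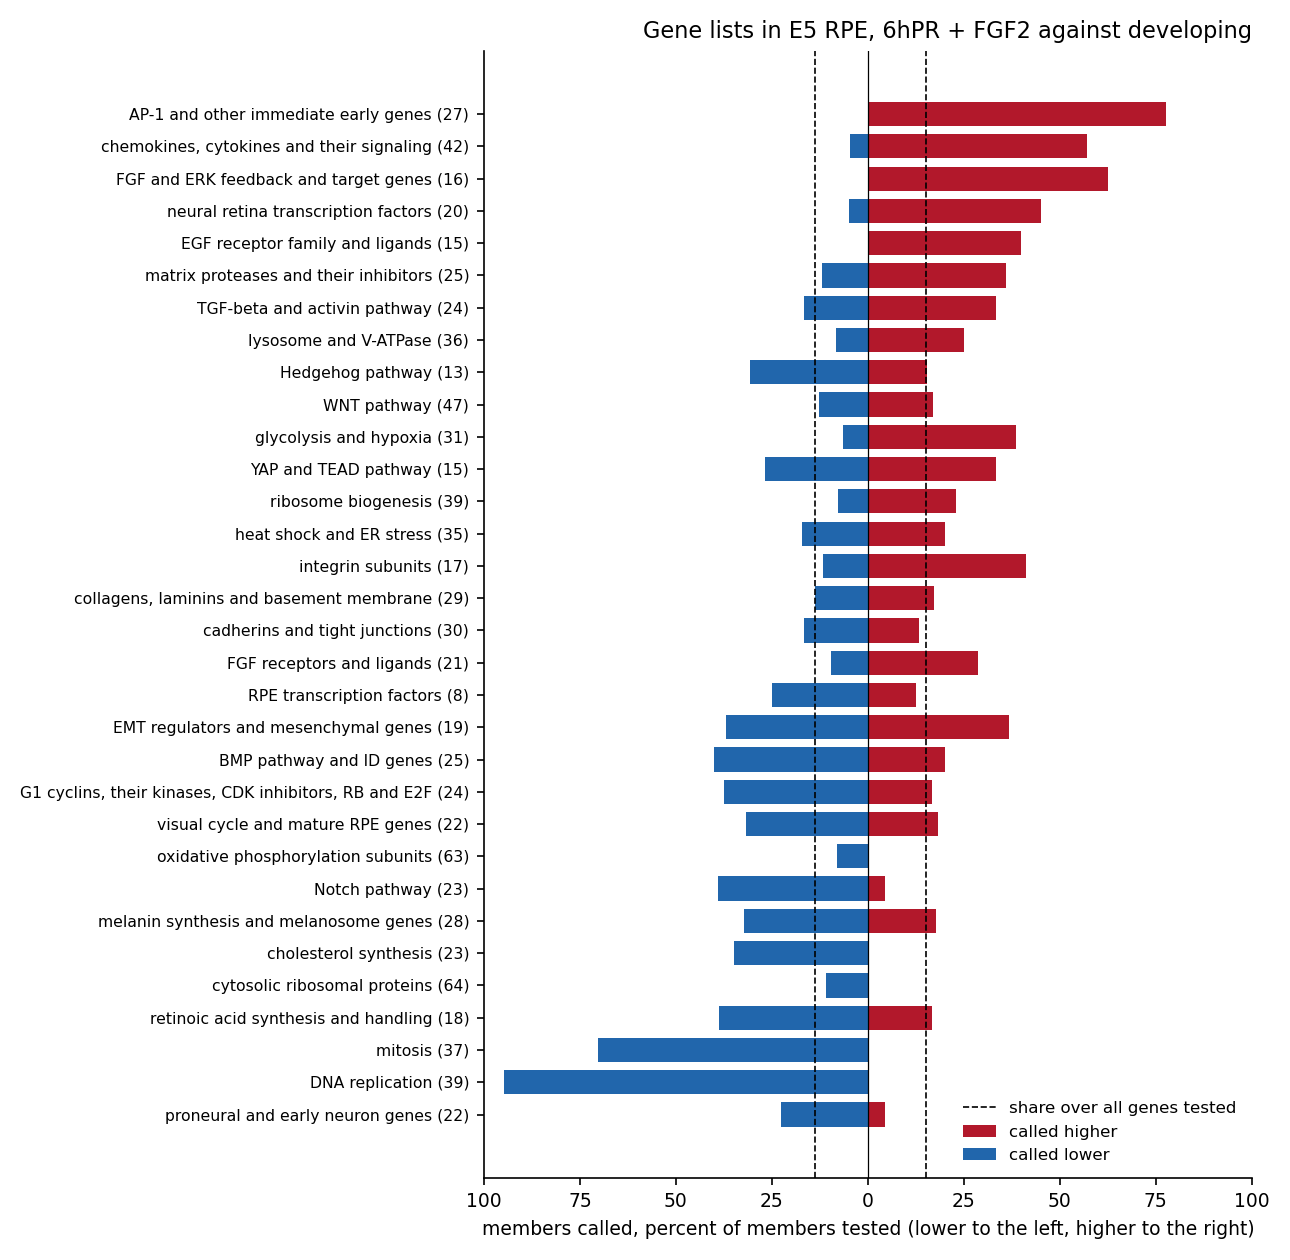
Share of the members tested that rose (red, to the right) and fell (blue, to the left) in E5 RPE, 6hPR + FGF2 against developing, for 32 gene lists (members tested in brackets), ordered by median log2 fold change. Dashed lines are the shares over all genes, 15.1% and 13.7%. Immediate early genes and cytokine genes stand at one end and mitosis, DNA replication and early neuron genes at the other. The median of the early neuron genes was -0.92 with all libraries and -0.07 without developing replicate 2.

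The same change at E4, when the RPE can still be reprogrammed, was compared by the interaction of stage and treatment, in which the E5 response exceeded the E4 response for 3.14% of genes and was below it for 2.42%. Feedback genes of FGF and ERK were called in neither direction (higher, 2 at an unadjusted p under 0.05, 0 by edgeR and 0 by DESeq2; lower, 3 at an unadjusted p under 0.05, 0 by edgeR and 1 by DESeq2). *C1S*, a complement protease, was at 50.2, 44 and 25.6 in E5 developing and 2201, 2296 and 2633 in E5 6hPR + FGF2 RPE, and at 221, 155 and 71 and 306, 467 and 256 at E4, so that the response at E5 was larger by 4.63 on the log2 scale (SE 0.53, adjusted p = 2.7e-04). For *CLCA2* and *C6orf58*, which had 0 reads in E5 developing RPE, the fitted differences between the stages (6.05, adjusted p = 2.7e-04, and 4.67, 7.2e-04) depend on the 0.5 added to each value. Against the floor of 3 counts in each E5 developing library, their responses at E5 were larger by 3.29 and 1.84 on the log2 scale, taking the ratio of group means at E4. Only the E5 side of these values is a lower bound. The E4 side rests on 39 and 14 reads in E4 developing RPE. *TBX22* was at 205, 163 and 67 and 125, 79.4 and 61.5 at E4, and its E5 response minus its E4 response was -4.69 (0.011). *HES5* was at 37.1, 52.5 and 37.1 and 404, 215 and 305 at E4, a difference in response of -6.38 (0.012). *STRA6* rose more at E5 (2.00, 7.6e-04), and *MITF* (1.19, 0.066) was not shown to differ. These 1016 genes depended on single libraries: 446 were called without E4 developing replicate 2, 604 without E4 developing replicate 3, 620 without E4 6hPR + FGF2 replicate 1, 487 and 592 without E5 6hPR + FGF2 replicates 1 and 2, and 2273 without E5 developing replicate 1.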

How the data were processed

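The deposited values are normalized counts, a signal that the authors computed: per the methods and labels, adapters were removed (Cutadapt, Trim Galore), STAR mapped the reads to GRCg6a by its 2-pass mode, StringTie counted Ensembl genes, low genes (under 10 raw counts in total) were discarded, and DESeq2 size factors scaled the libraries. Versions of these programs are not given in the sources used here, whereas the methods do name the Ensembl annotation release. All 18336 genes and 18 libraries were read, and 0 columns were left out. Times the size factor, 100% of values lay within 1e-06 of a whole read, and edgeR and DESeq2 used these reads. In R 4.3.3, limma 3.58.1 modelled log2(normalized count + 0.5) by 6 group means over all 18 libraries with a variance trend, for genes summing to 10 or more. For low or scattered genes, fold changes on this scale can be smaller or larger than those of DESeq2. *POU4F3* was at -3.45 on this scale and -5.08 by DESeq2, and *CCL4* (ENSGALG00000032717) at 4.04 and 2.95. Each comparison was adjusted separately. The fit was tested on simulated counts with the same dispersion for a gene in all groups. Such counts cannot show how the unequal spread between the groups bears on the calls.

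The members and lists (32, and 9 of cell markers) were chosen with earlier results of these data known. Genes were named by rule: (a) the 12 largest increases and 12 largest decreases among changed genes with a symbol of 1 Ensembl gene, a mean of 50 or more over the 6 libraries and no overlap between groups, (b) up to 5 changed members per list with that mean, and any member of the FGF and ERK feedback, neural retina and RPE transcription factor lists, (c) the 3 largest differences between the stages at each end, and (d) genes the study names for RNA-seq. Not every gene so named is described singly. Some are not reported here. *CD74*, *MARCO*, *CYBB*, *APOH*, *IFIT5*, *OASL*, *IRF1*, *IRF7*, *BLB1*, *BLB2*, *B2M*, *TAP1*, *SCG2*, *SST*, *PCSK1*, *HGF* and *MET* were named after their values were seen.

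Alternatives were pseudocounts of 1 and 5, no filter, a mean of 10 or more, TMM and quantile scaling, limma without the trend, array weights, a replicate block, only the groups compared, edgeR 4.0.16, DESeq2 1.42.0 and each library left out. Floors of 3 counts and intervals cover counting error only. Sequences and promoter motifs are not used here.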

Additional observations from a re-analysis of the deposited data

Results flagged for a closer look

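For 49 genes named here or counted above, the response to 6hPR + FGF2 differed between E5 and E4 by the interaction test of limma (adjusted p of 0.05 or less). How these differences hold with single libraries left out is not given gene by gene. Over all genes, the number of such calls ran from 446 to 2273 with single libraries left out. Values are log2 differences, E5 response minus E4 response, and no explanation was tested. Among genes of varied function, the E5 response was larger for *CLCA2* (6.05), *OLFM4* (5.33), *C6orf58* (4.67), *C1S* (4.63), *gga-mir-147* (4.47), *MMP9* (4.35), *C15orf48* (3.91), *SCG2* (1.71), *PCSK1* (2.57) and *APOH* (1.89). Reads of *gga-mir-147* may belong to its host gene *C15orf48*. *CLCA2*, *OLFM4*, *C6orf58*, *gga-mir-147* and *MMP9* had 0 reads in every E5 developing library, so their fitted differences depend on the 0.5 added to each value and are no bounds. Against the floor of 3 counts in each E5 developing library, the difference was 3.29 for *CLCA2*, 1.84 for *C6orf58* and 2.21 for *MMP9*, taking the ratio of group means at E4. Only the E5 side is a lower bound, and the E4 side rests on 39, 14 and 16 reads in E4 developing RPE. *OLFM4* and *gga-mir-147* had too few reads in E4 developing RPE for such a value. The E5 response was also larger for *IFIT5* (3.24), *OASL* (2.74), *BLB2* (1.44) and *CD74* (1.23), whereas *B2M* (0.42, adjusted p = 0.39), *BLB1* (1.03, 0.0547), *IRF1* (0.92, 0.18), *IRF7* (1.23, 0.097) and *TAP1* (1.44, 0.11) did not pass the test.

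Of retinoid genes, *STRA6* (2.00) and *LRAT* (1.91) rose more at E5. Of signaling genes the E5 response was larger for *WIF1* (2.50), *SP5* (2.16), *FOSL2* (1.47), *LRIG1* (1.42), *ERRFI1* (1.01), *AMOT* (1.00) and *MAML2* (0.830). *LAMA5* (1.37) and *ITGAV* (1.06), of matrix adhesion, and *UTP20* (0.610), *PSAP* (0.600), *ASNS* (0.555) and *WDR43* (0.540) also differed upward. So did the RPE factors *OTX1* (1.05) and *SOX9* (0.747), which did not rise at E5. Their fitted changes were -0.26 and -0.14 at E5 and -1.31 and -0.88 at E4.

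The E5 response minus the E4 response was below 0 for *KK34* (-8.74), *POU4F3* (-8.17), *HES5* (-6.38), *TBX22* (-4.69), *SIX6* (-4.34), *RXFP1* (-3.28), *C1QTNF12* (-2.81), *COL8A1* (-2.32), *ITGA4* (-1.74), *DLL1* (-1.41), *COL8A2* (-1.36), *TGFBI* (-1.11), *TBX2* (-1.07), *OCA2* (-0.923), *SNAI1* (-0.828), *GINS1* (-0.778), *AMOTL2* (-0.758) and *SIX3* (-0.752). Such a value does not mean a weaker response at E5. The fitted change was more negative at E5 for some genes, such as *C1QTNF12* (-3.82 at E5, -1.01 at E4) and *OCA2* (-1.66, -0.74). It was less positive for others, such as *ITGA4* (1.51, 3.25), or opposite in sign, as for *DLL1* (-0.85, 0.56). *KK34* had 0 reads in every E4 developing library, so its fitted value depends on the added 0.5. *POU4F3* stood at 0, 0 and 6.46 normalized counts in E4 developing and 9.45, 51.7 and 61.5 in E4 6hPR + FGF2 RPE, and *SIX6* at 125, 77 and 119 and 6713, 8127 and 7078. In E5 developing RPE both, with *HES5*, *DLL1*, *KK34* and *TBX22*, were highest in replicate 2, the library with the most neuron marker transcript.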

How the results depend on the processing

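The 5261 genes called in the main comparison were 5005 with edgeR, 5811 with DESeq2 and 2756 with only the groups compared, the setting that moved this count most. For 6hPR against developing RPE, 3476 became 1270 with only the groups compared. For 6hPR + FGF2 against 6hPR RPE, 4798 became 8866 with array weights. For the difference between the stages, 1016 became 1888 with DESeq2, 1629 with array weights and 677 with only the groups compared. The cause was not tested. With single libraries left out the counts ran from 3963 to 6054, from 2383 to 4707, from 2929 (without E5 6hPR replicate 2; 2968 without E5 6hPR replicate 3 and 2975 without E5 6hPR + FGF2 replicate 1) to 4810, and from 446 to 2273. The replicate block gave 5015, 3210, 4484 and 803 calls. Nothing in the labels says that a number marks a shared origin, and deviations of same-numbered developing and 6hPR + FGF2 libraries correlated at 0.0874, -0.228 and -0.119, so the numbers were not taken to pair the samples. Developing replicates 2 and 3 did not correlate best with their own numbers. Of 204 named genes 173 were called, 130 of them under every alternative, and 41 lost their call with only the groups compared. Among named genes called in the main fit or in the alternative, 0 changed direction. Changes of sign in genes called in neither were not counted, such as *OTX2*, from -0.0908 to 0.0020 with single libraries left out. The median of all genes shifted by at most 0.0475 on the log2 scale. Of 82 counts over lists, 53 moved by more than 1.5 times under at least 1 alternative. For a gene with 0 reads in every library of a group, depth allows only a bound on its fold change.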

Other observations

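The genes given here were chosen after their values were seen, so their values are a description. 4 genes that interferon induces in other vertebrates were higher with FGF2. *IFIT5*, an RNA-binding antiviral protein, was at 31.4, 37 and 15.9 normalized counts in developing RPE and at 2656, 2382 and 843 in 6hPR + FGF2 RPE, with a log2 fold change of 6.02, and stood at 65.3, 84.2 and 156 in 6hPR RPE. *OASL* was at 269.7, 127 and 125 normalized counts in developing RPE and at 2144, 1672 and 848 in 6hPR + FGF2 RPE (3.15), and the transcription factors *IRF1* and *IRF7* rose by 2.85 and 2.52. 6hPR + FGF2 replicate 3 was the lowest of its group for *IFIT5*, *OASL*, *IRF1* and *IRF7*. The class I chain *B2M* (2.18), the peptide transporter *TAP1* (2.97) and the class II chains *BLB1* (2.67) and *BLB2* (2.98), all of antigen presentation, rose too. Of 13 leukocyte markers 5 rose in the same comparison, and their part in these values was not tested.

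*SCG2*, secretogranin II, was at 277, 414 and 497 normalized counts in developing RPE and at 34775, 31669.6 and 24526 in 6hPR + FGF2 RPE (log2 6.28), and *PCSK1*, a protease that matures prohormones, was at 553, 350.1 and 342 normalized counts in developing RPE and at 5623, 5221 and 2573 in 6hPR + FGF2 RPE (3.38). *SST*, somatostatin, was at 94.1, 0 and 48.9 normalized counts in developing RPE and at 1221, 1189 and 1348 in 6hPR + FGF2 RPE (6.56, between 4.20 without developing replicate 2 and 7.98 without developing replicate 1, and not called with only the groups compared). *HGF*, hepatocyte growth factor, was at 165, 137 and 96.5 normalized counts in developing RPE and at 2439, 2705 and 4112 in 6hPR + FGF2 RPE (4.53), and its receptor *MET* was at 257, 202 and 128 normalized counts in developing RPE and at 1430.3, 1417 and 1627 in 6hPR + FGF2 RPE (2.98).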
